A study of Aedes albopictus with 6 samples.

Results

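The genes described here are the immune genes of the Toll and IMD pathways in *Aedes albopictus*, the Asian tiger mosquito, with their recognition proteins and antimicrobial effectors. They were chosen by gene description alone, by matching the words for Toll proteins, spaetzle, cactus, dorsal, myeloid differentiation factors, peptidoglycan and glucan recognition proteins, antimicrobial peptides, lysozymes, C-type lectins, thioester proteins and CD109. This gave 147 of the 23529 genes with values, and 11 further rows that matched were blank in every library. Of the 147, 14 are thioesterases, enzymes matched by the word "thioester" that are not thioester-containing immune proteins, which leaves 133 genes. Some of them act on lipid or coenzyme A bonds and others remove ubiquitin. Genes named relish, gambicin or Gram-negative bacteria-binding protein were not analysed here, since no gene with values carried those words in its description.

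Ovaries were compared by RNA-seq in 2 groups of 3 libraries, a control and an overexpression of Aalpi18529, a piRNA. A piRNA is a small RNA bound by PIWI proteins, and here it was raised with mimics, which are synthetic copies of the small RNA. The series asked about ovary development after a blood meal. Strain, the number of females behind a library and the hour after feeding are not given here. The labels do not say that libraries came from separate females, so p-values measure the spread between these libraries, which may be technical.

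In insects, the Toll receptors are activated by spaetzle, a secreted ligand that must first be cut by a protease, and the signal passes through MyD88 and the kinase pelle to release the NF-kappaB factor dorsal from its inhibitor cactus. The IMD pathway starts at peptidoglycan recognition proteins (PGRPs), which bind bacterial cell wall, and passes through the adaptor protein immune deficiency (IMD) to an NF-kappaB factor of the p110 type, which in Drosophila is Relish. Both pathways turn on antimicrobial peptides, mostly in the fat body, and in Drosophila maternal Toll, dorsal and cactus also lay down the dorsoventral axis of the embryo.

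Levels are given as CPM, the counts scaled to each library's total over the tested genes after adjustment by TMM, a scaling factor per library (0.991 to 1.01). They are not corrected for gene length and are compared between libraries only. Library totals lay between 15719412 and 16465531 estimated counts, of which the 147 genes took 34173.7 to 36805.1. The ovary label was checked against marker genes. All 22 germline genes, such as oskar, vasa and nanos, were tested, and their summed level was 8200 ± 165 CPM (SD, n = 3) in controls and 8290 ± 130 CPM with overexpression. Genes of eggshell and follicle cells summed to 7390 ± 73.2 CPM and 7480 ± 286 CPM. Markers of other tissues were present too. Muscle genes summed to 2450 ± 14.9 CPM in controls against 2340 ± 53.4 CPM with overexpression, and midgut genes to 192 ± 5.78 CPM against 165 ± 19.5 CPM. Of 119 genes listed for hemocytes, the circulating blood cells, 64 were tested, and the list summed to 1120 to 1150 CPM in controls against 1070 to 1110 CPM with overexpression. None of its genes was described as hemocytin, hemolectin or nimrod. In bulk tissue, fewer cells of a type and less RNA per cell cannot be told apart.

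No immune gene passed the test. Of the 147 genes, 89 had enough counts to be tested (at least 10 counts, or 0.624 CPM, in 3 libraries), and 0 of these had an adjusted p under 0.05 by edgeR's quasi-likelihood test, against 0.0129% of all 15540 genes tested. DESeq2 also called 0, against 0.0652% of its genes. The 89 were spread evenly about no difference, with 44 higher and 45 lower with overexpression. Their median fitted log2 fold change, overexpression over control, was -0.01, beside 0.00 over all tested genes. The smallest edgeR adjusted p among them was 0.963.

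At an unadjusted p under 0.05 in edgeR's test, 8 of the 89 were found (8.99%), 3 higher and 5 lower, beside 4.92% of all tested genes (2.42% higher and 2.5% lower). In 11 of the 89 (12.4%) the CPM of the groups did not overlap, 5 higher and 6 lower, beside 10.4% of all tested genes (5.25% higher and 5.12% lower). A difference of at least 2-fold was fitted for 2 of the 89, beside 1.01% of all tested genes. Both had few counts, the spaetzle-processing enzyme and a PGRP described as PGRP 2-like. Each entered the test through the counts of 1 group only, so that the filter favoured a difference in its direction. Both are also among the 8 and the 11 genes above. Without the thioesterases, 7 of 75 genes had an unadjusted p under 0.05 (9.33%), and the median fitted log2 fold change was -0.02. Summed over all 147 genes, the level was 2220 ± 24.8 CPM in controls against 2210 ± 17.1 CPM with overexpression (SD, n = 3).

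**Figure D1:**
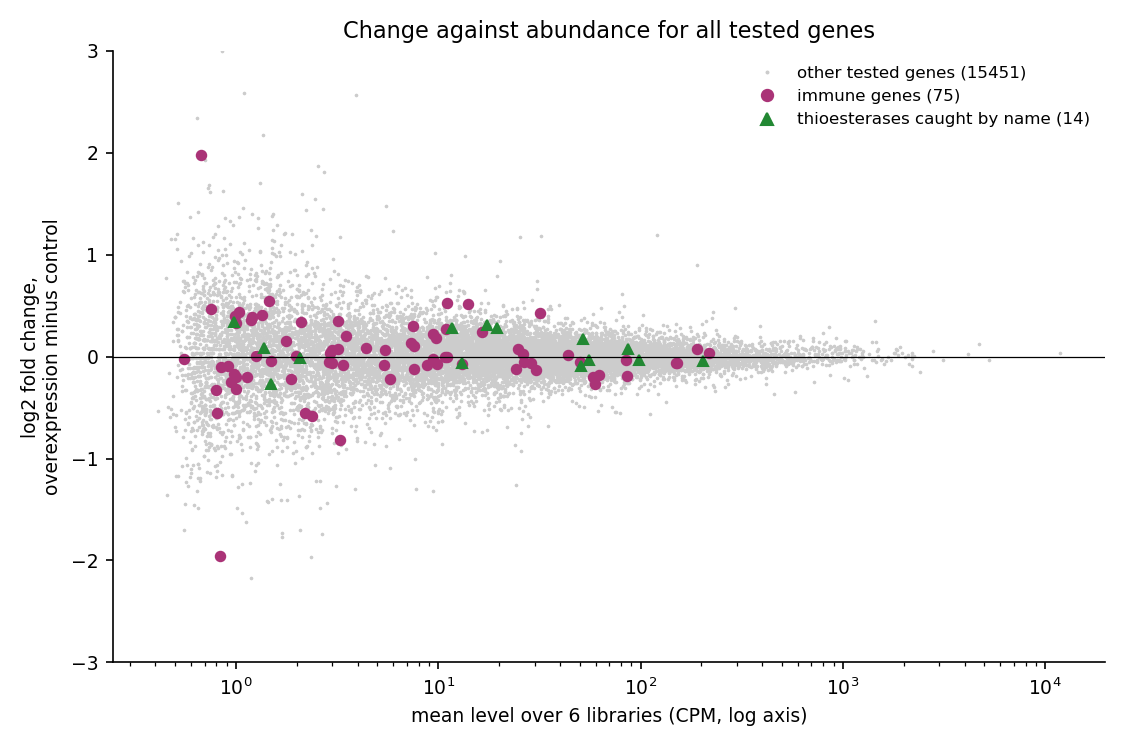
Log2 fold change of overexpression over control (vertical axis) against mean CPM over the 6 libraries (horizontal log axis), with 15451 other tested genes in grey, 75 immune genes and 14 thioesterases in colour. The vertical axis ends at 3 in size and leaves out 6 other genes. The immune genes lie on both sides of 0, and those far from 0 have low CPM.

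The 75 tested immune genes other than thioesterases had fewer reads, and more spread between libraries, than the typical tested gene. Their median was 4.42 CPM, beside 21.4 CPM over all tested genes, and their median biological coefficient of variation, the spread between libraries beyond counting noise, was 0.199, beside 0.125. Within bands of equal CPM the spreads were closer. Above 20 CPM the median was 0.082 for 24 immune genes and thioesterases and 0.0838 for 8005 genes in all. Between 1 and 5 CPM it was 0.258 for 27 of them and 0.224 for 3056 genes in all.

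Many of these genes have estimates that share reads with another gene. Genes of the same name are called copies here, and their sequences were not compared. Whole-number estimates were found for 65 of the 147, and 82 had fractions in at least 1 library. Of the 82, 45 fell into 24 pairs whose estimates added up to whole numbers in every library, within 0.01. In 20 of these pairs both genes were tested, 1 or both of them among the 147. The fitted fold changes had opposite signs in 7, and in 5 the sum differed less between the groups than either gene did. Such genes are uncertain one by one, and sums over pairs or copies are given beside them. Sums over copies that did not add up to whole numbers in every library are marked as such. When pairs of this kind were summed over the whole table, an alternative added after the data were seen, 6 of 71 units that held at least 1 of the 147 genes had an unadjusted p under 0.05 in edgeR's test (8.45%), beside 5.17% of all units. None had an adjusted p under 0.05.

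The ligands had nearly the same summed counts in both groups. The 8 spaetzle genes gave summed counts of 938, 948 and 966 in control libraries 1 to 3 and of 932, 952 and 963 with overexpression. The sums overlapped, at 58.5 ± 0.633 CPM and 59.9 ± 1.94 CPM (SD, n = 3). The gene of this class with the highest CPM, LOC115261123 (protein spaetzle-like), had estimated counts of 463.79, 372.21 and 433.79 in controls and 400.81, 450.57 and 413.58 with overexpression. Its fitted log2 fold change was 0.03 ± 0.12 (SE), at an edgeR adjusted p of 0.992. Over the 8 genes, fitted log2 fold changes ran from -0.32 for a spaetzle 5-like gene to 0.30 for spaetzle 4 (LOC109411759). Spaetzle 4 had counts of 86, 109 and 133 in controls and 169, 111 and 113 with overexpression, so only overexpression library 1 lay above the controls.

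The spaetzle-processing enzyme, the protease that cuts spaetzle into its active form in Drosophila, had the smallest unadjusted p of the 89 genes. LOC109422870 (scaffold NW_021838561.1, positions 83444 to 85017) had estimated counts of 23.75, 12.26 and 28.84 in controls and 7.47, 3.94 and 4.93 with overexpression. Every overexpression library lay below every control. The means were 1.33 ± 0.52 CPM and 0.343 ± 0.111 CPM (SD, n = 3), and the fitted log2 fold change was -1.96 ± 0.45 (SE). The unadjusted p was 0.0023, rank 29 of 15540 genes, and the adjusted p was 0.963 by edgeR's quasi-likelihood test. The gene entered the test only through its control counts, so that a difference in this direction was favoured by the filter.

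Its estimates shared reads with LOC115269971, described as a CLIP domain-containing serine protease, the protein family to which the enzyme belongs. Together the pair had 97, 29 and 141 counts in controls and 24, 20 and 44 with overexpression. Here the groups overlapped, since control library 2 lay between the overexpression libraries. The fitted log2 fold change of the sum was -1.56 ± 0.55 (SE), at an edgeR adjusted p of 0.946 (0.772 to 0.998 over the alternatives for the enzyme).

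Of the 30 Toll receptor genes, 16 were tested, 6 higher and 10 lower, with a median fitted log2 fold change of -0.08. None had an unadjusted p under 0.05 in edgeR's test, beside 4.92% of all tested genes. The summed level was 231 ± 11.1 CPM in controls against 217 ± 13.8 CPM with overexpression (SD, n = 3), at 239, 236 and 219 CPM against 210, 209 and 233 CPM, so overexpression library 3 lay among the controls. The receptor with the highest CPM was LOC109413562 (toll-like receptor 2), with estimated counts of 1106.84, 1170.84 and 882.94 in controls and 742.95, 822.27 and 989.47 with overexpression. These groups overlapped, the fitted log2 fold change was -0.27 ± 0.14 (SE) and the edgeR adjusted p was 0.963. Summed with LOC115260112 (toll-like receptor 13), with which it shared reads, the values were 75.6 ± 12.8 CPM and 64.5 ± 11.3 CPM, a fitted log2 fold change of -0.23 ± 0.15 (SE).

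The 8 genes described as protein toll-like summed to 1933, 1945 and 2067 counts in controls and 1916, 1799 and 1876 with overexpression. These counts did not overlap, while on the adjusted CPM scale the groups did, at 122 ± 3.25 CPM and 118 ± 4.19 CPM (SD, n = 3). The one with the highest CPM, LOC109402626, had 43.6 ± 4.06 CPM and 44.3 ± 2.9 CPM. At low counts, LOC109403397 (toll-like receptor 7) was the single tested receptor whose groups did not overlap, at 1.04 ± 0.166 CPM in controls against 1.35 ± 0.0405 CPM with overexpression. Its unadjusted p was 0.201 in edgeR's test. A single receptor is 6.25% of the 16 tested, beside 10.4% of all tested genes without overlap. The 14 receptor genes that were not tested reached at most 12.5 counts in any library. These protein toll-like and toll-like receptor 7 genes, and spaetzle 4, were named after their values were seen.

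In the cytoplasmic arm of the Toll pathway, the sums over copies overlapped between groups for cactus and MyD88. Cactus, the inhibitor that holds dorsal in the cytoplasm, was represented by a pair of genes. LOC109429544 (cactus, scaffold NW_021837378.1, positions 26767808 to 26788583) had estimated counts of 3378.98, 3592.85 and 3562.13 in controls and 3638.01, 3421.82 and 3528.71 with overexpression. These overlapped, and the fitted log2 fold change was 0.04 ± 0.05 (SE), at an edgeR adjusted p of 0.971. LOC115254172 (cactus-like, scaffold NW_021838310.1, positions 267359 to 268463) had 955.02, 1111.15 and 968.87 in controls and 905.99, 811.18 and 861.29 with overexpression. All overexpression libraries of the second gene lay below all controls, with a fitted log2 fold change of -0.20 ± 0.08 (SE), an unadjusted p of 0.0383 and an adjusted p of 0.963 by edgeR's test. The sum of both was a whole number in each library, at 4334, 4704 and 4531 against 4544, 4233 and 4390 counts. It came to 278 ± 7.69 CPM and 277 ± 9.93 CPM (SD, n = 3), a fitted log2 fold change of -0.01 ± 0.04 (SE). The cactus-like gene was 62.2 CPM of this in controls and 54.2 CPM with overexpression. That difference is about the size of the SD of the sum, so the sum could hardly show it.

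Dorsal, the NF-kappaB factor of the Toll pathway, came from a single expressed gene with whole counts. LOC109411712 (scaffold NW_021837378.1, positions 35247895 to 35329390) had 2413, 2519 and 2520 counts in controls and 2443, 2416 and 2113 with overexpression. These counts overlapped, while on the adjusted CPM scale the groups just failed to overlap, at 153 ± 0.838 CPM and 146 ± 9.21 CPM (SD, n = 3). The fitted log2 fold change was -0.06 ± 0.06 (SE), at an edgeR adjusted p of 0.971. The other genes described as dorsal had at most 3 counts in any library.

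MyD88, the adaptor that joins Toll to pelle, was also a pair of genes that shared reads. LOC115266575 and LOC109408899 together had 195, 205 and 162 counts in controls and 251, 260 and 144 with overexpression. Overexpression libraries 1 and 2 were above all controls and library 3 was below them. The sums were 11.5 ± 1.5 CPM and 13.7 ± 3.89 CPM (SD, n = 3), and the fitted log2 fold change was 0.25 ± 0.22 (SE). The summed level of the 7 cactus, dorsal and MyD88 genes was 443 ± 9.37 CPM in controls against 437 ± 12.3 CPM with overexpression.

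The other genes of the pathways were read from a separate list of 140 genes. Of these, 86 were tested and 0 had an adjusted p under 0.05. They divided into 44 higher and 42 lower, with a median fitted log2 fold change of 0.01. At an unadjusted p under 0.05 in edgeR's test, 9 were found (10.5%), 2 higher and 7 lower, beside 4.92% of all tested genes, 2.42% higher and 2.5% lower. The list holds 32 signalling genes, of which 29 were tested, and 5 genes caught by their names without a known part in immunity. The genes named from this list were chosen after their values were seen.

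For pelle, the kinase below MyD88, single copies had fitted changes of opposite sign, and the summed CPM of the copies overlapped. No test of the sum is given here. LOC109415475 had estimated counts of 120.05, 106.17 and 113.94 in controls and 79.53, 56.37 and 82.39 with overexpression, all lower, and a fitted log2 fold change of -0.60 ± 0.20 (SE). LOC115264543 had 63.24, 69.12 and 83.74 in controls and 97.74, 129.44 and 105.1 with overexpression, all higher, and a fitted log2 fold change of 0.66 ± 0.19 (SE). Each had an adjusted p of 0.963 in edgeR's test. The 3 pelle genes together had 293, 286 and 297 counts in controls and 282, 283 and 275 with overexpression. These counts did not overlap, while on the adjusted CPM scale the groups did, at 18 ± 0.507 CPM and 17.7 ± 0.0933 CPM (SD, n = 3).

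For the adaptor IMD too, single copies had fitted changes of either sign, and no test of the sum is given here. LOC109430681 (protein immune deficiency) had 117.92, 128.72 and 130.22 in controls and 185.48, 164.53 and 159.29 with overexpression, all higher. Its fitted log2 fold change was 0.47 ± 0.13 (SE), at an unadjusted p of 0.00744 and an adjusted p of 0.963 by edgeR's test. The 4 IMD genes summed to 511, 546 and 656 counts in controls and 626, 577 and 534 with overexpression, and the groups overlapped. The sums were 35.1 ± 4.06 CPM and 36.5 ± 2.34 CPM (SD, n = 3).

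**Figure D2:**
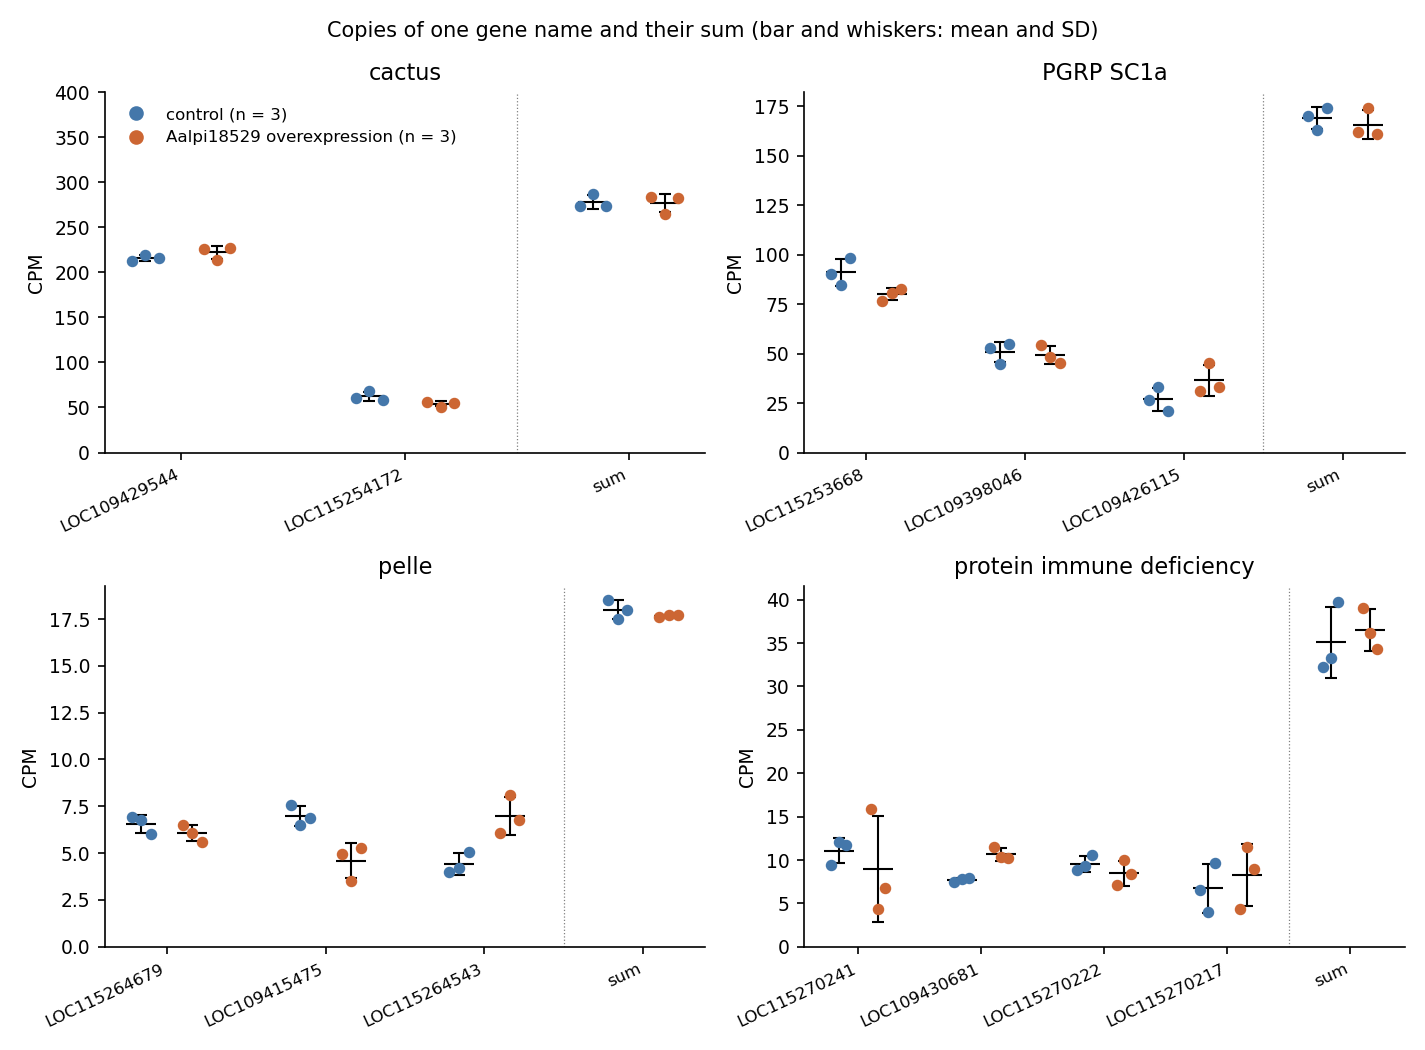
CPM per library for each copy of cactus, PGRP SC1a, pelle and protein immune deficiency and for the sum of the copies, with controls and overexpression libraries side by side, each point 1 library, horizontal lines at the group means and whiskers of 1 SD. Single copies separate the groups in places, while the sums of the copies overlap in these 4 chosen families. Sums of some families not drawn, such as CD109 and FAS-associated factor 1, did not overlap.

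The NF-kappaB p110 subunit-like genes, the factor type of the IMD pathway, had 853, 940 and 775 counts in controls and 916, 837 and 841 with overexpression as a pair. These overlapped at 52.7 ± 5.29 CPM and 54.5 ± 2.31 CPM (SD, n = 3). FAS-associated factor 1, known in Drosophila as Caspar, a negative regulator of the IMD pathway, summed over its pair to 369 ± 6.11 CPM and 353 ± 3.66 CPM. Every overexpression library lay below every control. The fitted log2 fold change of the sum was -0.06, with an unadjusted p of 0.126 in edgeR's test. The adaptor FADD, which acts below IMD, summed over its pair to 6.74 ± 0.716 CPM and 7.27 ± 0.239 CPM.

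Melanization is a further immune reaction, in which clip proteases activate phenoloxidase to deposit melanin on a pathogen. Of 20 phenoloxidase genes 5 were tested, and 0 had an unadjusted p under 0.05 in edgeR's test, beside 4.92% of all tested genes. Of 83 genes for phenoloxidase-activating factors and the activating enzyme, 47 were tested, 25 higher and 22 lower. Of these, 5 had an unadjusted p under 0.05 in edgeR's test, all of them lower, beside 2.5% of all tested genes lower at that limit. The 51 genes described as activating factor 2 summed to 565 ± 20.8 CPM in controls against 564 ± 1.73 CPM with overexpression (SD, n = 3). Their estimates did not add up to whole numbers in every library, so this sum may miss shared reads.

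Among recognition proteins, the PGRPs were led by the SC1a genes. In Drosophila, SC-type PGRPs cut peptidoglycan and dampen the IMD response. LOC115253668 (SC1a-like, scaffold NW_021838454.1, positions 7773423 to 7781710) had estimated counts of 1436.79, 1388.95 and 1623.52 in controls and 1233.31, 1284.21 and 1289.26 with overexpression. All overexpression values were lower, with a fitted log2 fold change of -0.19 ± 0.07 (SE), an unadjusted p of 0.0321 and an adjusted p of 0.963 by edgeR's test. LOC109426115 (SC1a, positions 5982273 to 5990756 of the same scaffold) had 423.16, 540.74 and 348.2 in controls and 496.48, 725.32 and 511.41 with overexpression. These overlapped, with a fitted log2 fold change of 0.43 ± 0.19 (SE). The 3 SC1a genes summed to whole numbers, 2699, 2667 and 2875 in controls and 2601, 2780 and 2506 with overexpression, with overlap at 169 ± 5.77 CPM and 166 ± 7.38 CPM (SD, n = 3).

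The 4 genes for PGRP LC, in Drosophila the surface receptor of the IMD pathway, summed to 406, 413 and 449 counts in controls and 652, 528 and 325 with overexpression. Libraries 1 and 2 lay above and library 3 below all controls, and the means were 26 ± 1.06 CPM and 31.5 ± 9.94 CPM (SD, n = 3). PGRP LE (LOC109415577), the intracellular receptor of the pathway in Drosophila, had 157, 151 and 153 counts in controls and 130, 195 and 119 with overexpression, a fitted log2 fold change of -0.02. PGRP LB, an enzyme that degrades peptidoglycan, summed over its pair to 9.83 ± 1.31 CPM and 11.2 ± 2.73 CPM. PGRP LA summed over its pair to 16.3 ± 1.1 CPM and 16.4 ± 2.43 CPM. In each of these families the groups overlapped. The LC, LE, LB and LA genes were named after their values were seen.

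PGRP 2-like had the highest fitted fold change of the 89 genes. LOC115269531 (scaffold NW_021838565.1, positions 4594055 to 4594770) had estimated counts of 1, 4 and 8 in controls and 22.17, 14 and 15 with overexpression. Every overexpression library lay above every control, at 0.264 ± 0.211 CPM against 1.07 ± 0.269 CPM (SD, n = 3). The fitted log2 fold change was 1.98 ± 0.55 (SE), the unadjusted p was 0.00637, rank 94 of 15540, and the adjusted p was 0.963 by edgeR's test. It entered the test only through its overexpression counts, so that a difference in this direction was favoured by the filter. With the other PGRP 2 gene the counts were 4, 4 and 9 against 23, 18 and 16, without overlap. Most of these counts came from LOC115269531 itself, so the sum adds no separate support.

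Proteins with a LysM domain are described as putative peptidoglycan-binding proteins. LOC109412597, with the highest CPM of the peptidoglycan class, had 3079.89, 3116.32 and 2875.93 estimated counts in controls and 3524.75, 2908.97 and 2892.7 with overexpression. Overexpression library 1 stood above the others, and the fitted log2 fold change was 0.07 ± 0.08 (SE), at an edgeR adjusted p of 0.971. The 3 genes of this description summed to 370 ± 12.3 CPM and 372 ± 2.89 CPM (SD, n = 3), so that the high value of library 1 was not seen in the sum, at 374 CPM.

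The beta-1,3-glucan-binding proteins, which recognise fungal and bacterial walls, had few counts. Of 13 genes 8 were tested, 3 higher and 5 lower, with fitted log2 fold changes from -0.25 to 0.40. At an unadjusted p under 0.05 in edgeR's test 0 were found, beside 4.92% of all tested genes. LOC115266475, with the highest mean CPM, had 62.17, 51.75 and 45.62 in controls and 73.25, 32.02 and 73.57 with overexpression, with overlap. Summed with LOC109404882, with which it shared reads, it had 121, 96 and 94 counts against 102, 93 and 139, also with overlap. The class summed to 14.7 ± 1.94 CPM and 15 ± 1.01 CPM (SD, n = 3).

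C-type lectins, which bind sugars on microbes, had few counts, and 15 of 16 genes reached at most 7 counts in a library. The exception was LOC109621428 (C-type lectin 37Da-like, scaffold NW_021838576.1, positions 36258423 to 36263523). It had 65, 50 and 88 counts in controls and 23, 44.17 and 45 with overexpression. All overexpression libraries lay below all controls, at 4.16 ± 1.14 CPM against 2.36 ± 0.81 CPM (SD, n = 3). The fitted log2 fold change was -0.82 ± 0.33 (SE), the unadjusted p was 0.0354 and the adjusted p was 0.963 by edgeR's test. The 8 genes of the same description together overlapped between groups, at 4.78 ± 1.31 CPM and 3.01 ± 0.67 CPM. Their estimates did not add up to whole numbers in every library, so this sum may miss shared reads.

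Thioester-containing proteins act in mosquitoes like complement factors that coat microbes. They appear here as CD109 antigen, the name of a vertebrate relative. Of the 18 genes, 9 were tested, 3 higher and 6 lower. LOC109431814, with the highest CPM, had 1328, 1459 and 1370 counts in controls and 1300, 1382 and 1291 with overexpression, with overlap and a fitted log2 fold change of -0.03 ± 0.06 (SE). LOC115253722 (CD109 antigen-like, scaffold NW_021838687.1, positions 51989380 to 52081741) had 1081.26, 1093.87 and 1066.48 in controls and 938.02, 952.55 and 907.37 with overexpression. All overexpression values of the latter were lower, at 66.5 ± 1.79 CPM against 58.8 ± 0.78 CPM (SD, n = 3). Its fitted log2 fold change was -0.18 ± 0.06 (SE), at an unadjusted p of 0.0195 and an adjusted p of 0.963 by edgeR's test.

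As a class the CD109 genes summed to 3270, 3588 and 3338 counts in controls and 3120, 3210 and 3080 with overexpression, a whole number in each library. On the CPM scale the class did not overlap, at 206, 219 and 202 CPM in controls against 194, 201 and 198 CPM with overexpression. The log2 ratio of the means was -0.08. Of the class means of 209 CPM in controls and 198 CPM with overexpression, LOC115253722 supplied 66.5 and 58.8 CPM. Most of the class difference thus lay in this gene. Hemocytes are a known source of thioester-containing proteins in mosquitoes. Of the 64 tested genes on the hemocyte list, 6 had an unadjusted p under 0.05 in edgeR's test, all lower (9.38%), beside 2.5% of all tested genes lower at that limit. These 6 include the 5 phenoloxidase-activating factors above, whose class makes up 47 of the 64 tested genes. The count is thus largely the melanization result again and not a separate one. The part of blood cells in the CD109 values was not tested.

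The effectors had few counts. All 8 antimicrobial peptide genes, which encode small secreted peptides that kill bacteria and fungi, together had 78.3, 79.1 and 53.5 estimated counts in controls and 112.8, 88.5 and 71.2 with overexpression. The sums overlapped, at 4.33 ± 0.948 CPM and 5.71 ± 1.23 CPM (SD, n = 3), a log2 ratio of 0.40. Without overexpression library 1, the highest of the 6, the overexpression mean was 5.06 CPM and the log2 ratio was 0.22. Leaving out the highest value had to lower the ratio. With each library left out in turn, it ran from 0.22 to 0.54. The 4 tested genes were all fitted as higher, by 0.33 to 0.47 on the log2 scale. Of the 4, 0 had an unadjusted p under 0.05 in edgeR's test, beside 4.92% of all tested genes.

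The defensins are peptides active mainly on Gram-positive bacteria. Defensin-C (LOC109409889) had 11, 24 and 8 counts in controls and 14, 26 and 13 with overexpression, and the groups overlapped. Its fitted log2 fold change was 0.33 ± 0.48 (SE), at an edgeR adjusted p of 0.971. Defensin-A (LOC109399074) had 2, 24 and 5 counts in controls and 21, 12 and 9 with overexpression, with control library 2 the highest of all. Its fitted log2 fold change was 0.47 ± 0.74 (SE), at an edgeR adjusted p of 0.971. The remaining gene, defensin-C-like (LOC109399127), had 1 count in control library 3 and 0 in every other library.

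Attacin-B-like (LOC109402005), of a family active on Gram-negative bacteria, shared its reads with LOC109399761. The pair had 28, 9 and 17 counts in controls and 26, 17 and 28 with overexpression, with overlap and a fitted log2 fold change of 0.42 ± 0.43 (SE). Holotricin-3-like (LOC109423772), a glycine-rich antifungal peptide first described in a beetle, had 24.34, 17.07 and 14.53 in controls and 32.8, 24.5 and 16.16 with overexpression. These overlapped too, with a fitted log2 fold change of 0.41 ± 0.36 (SE) and an edgeR adjusted p of 0.971. Summed with a glycine-rich protein gene with which it shared reads, it had 42, 38 and 39 counts against 61, 47 and 32. The other holotricin-3-like gene, LOC109416176, had 10, 5 and 8 counts against 15, 5 and 2. Cecropin-B type 2 (LOC115256529), a membrane-lysing peptide, had 3, 0 and 0 counts in controls and 4, 4 and 3 with overexpression. Its CPM did not overlap between groups, at counts too low to be tested.

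Lysozymes digest peptidoglycan. LOC109399239 (lysozyme c-1-like) had 255, 262 and 219 counts in controls and 312, 269 and 270 with overexpression. On the CPM scale every overexpression library lay above every control, at 15.1 ± 1.6 CPM against 17.9 ± 1.36 CPM (SD, n = 3). The fitted log2 fold change was 0.24 ± 0.13 (SE), at an unadjusted p of 0.0879 and an adjusted p of 0.963 by edgeR's test. LOC109429051, also c-1-like, had 153, 167 and 117 counts in controls and 246, 147 and 223 with overexpression. Library 2 of the overexpression group lay among the controls, and the fitted log2 fold change was 0.53 ± 0.22 (SE), at an unadjusted p of 0.0453 and an adjusted p of 0.963 by edgeR's test. Both genes had whole counts in every library, and they are neighbours on scaffold NW_021838153.1, between positions 92905701 and 92923793. Their sum overlapped between groups, at 24.1 ± 3.24 CPM and 30.8 ± 4.39 CPM. The 9 lysozyme genes as a class summed to 31.7 ± 3.19 CPM and 37.8 ± 4.14 CPM, also with overlap, since overexpression library 2 had 33.1 CPM and control library 1 had 33.8 CPM.

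**Figure D3:**
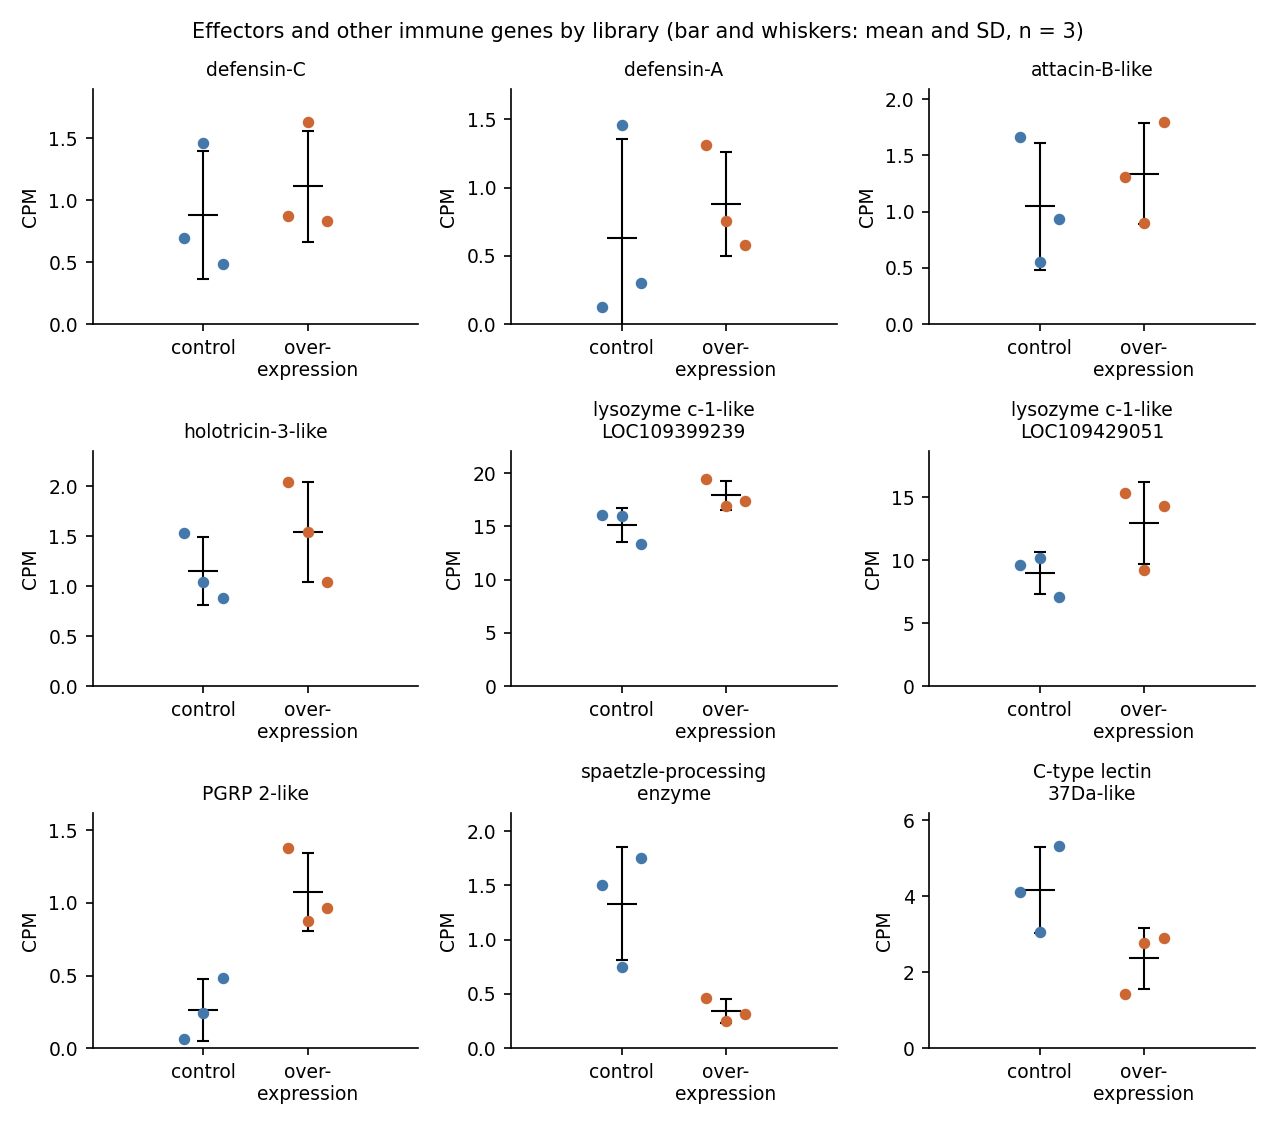
CPM per library of 9 immune genes, mostly effectors, with controls and overexpression libraries side by side, each point 1 library, horizontal lines at the group means and whiskers of 1 SD. The defensins, attacin-B-like and holotricin-3-like overlap between groups, while PGRP 2-like, the spaetzle-processing enzyme, the C-type lectin and 1 lysozyme do not.

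Antimicrobial peptides and lysozymes are made in the fat body, and fat body markers differed between the libraries. Of the 19 genes listed, 5 were tested. The list summed to 160, 129 and 137 CPM in controls against 214, 156 and 157 CPM with overexpression, with overexpression library 1 the highest, as it was for the summed peptides and the summed lysozymes. The yolk protein gene vitellogenin-A1, which the fat body makes after a blood meal, showed the same library most clearly. LOC109413684, named after its values were seen, had 4, 2 and 1 counts in controls and 305, 3 and 0 with overexpression. Without overexpression library 1 the overexpression mean of the list was 156 CPM, a fall fixed by leaving out the highest value. For the summed lysozymes, overexpression library 3 at 39.6 CPM was close to library 1 at 40.7 CPM. Without library 1 their overexpression mean was 36.4 CPM, a log2 ratio of 0.2, beside 0.25 with all libraries. With each library left out in turn, the lysozyme ratio ran from 0.17 to 0.34. The part of fat body in the effector values was not tested.

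**Figure D4:**
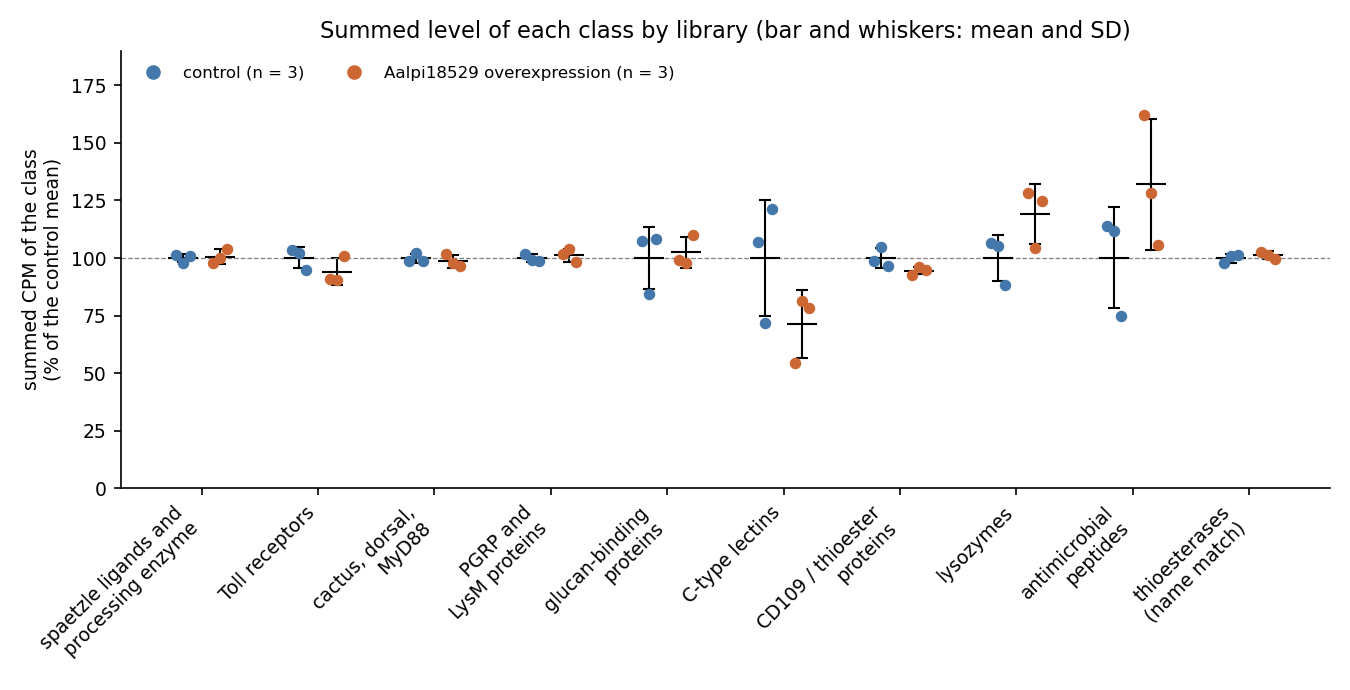
Summed CPM of each class in each library as a percentage of the control mean (vertical axis), with the group mean and SD. Antimicrobial peptides stand at 132% and lysozymes at 119% of the control mean with overexpression and C-type lectins at 71.4%, each with overlapping libraries, and the other classes lie between 94% and 102%.

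The thioesterases, listed because their name matched, were tested in the same fit. All 14 were tested, 7 higher and 7 lower, and they summed to 611 ± 12 CPM in controls against 619 ± 9.28 CPM with overexpression (SD, n = 3). The one with the highest CPM, LOC109429106, is described as ubiquitin thioesterase trabid, an enzyme that removes ubiquitin chains and in Drosophila dampens the IMD pathway. It had 207 ± 2.99 CPM and 201 ± 3.32 CPM, a fitted log2 fold change of -0.04. Acyl-protein thioesterase 2-like (LOC109407707), which removes lipid anchors from proteins, had 723.73, 859.08 and 791.13 in controls and 882.87, 865.47 and 859.09 with overexpression. All of its overexpression values were higher, with a fitted log2 fold change of 0.17 ± 0.07 (SE), an unadjusted p of 0.0491 and an adjusted p of 0.963 by edgeR's test. Summed with its read-sharing copy, the fitted log2 fold change was 0.04 ± 0.05 (SE). On the CPM scale these sums just failed to overlap, at 101 ± 0.242 CPM in controls against 104 ± 3.02 CPM with overexpression (SD, n = 3). A palmitoyl-protein thioesterase (LOC115264342), a lysosomal enzyme, had 10.5 ± 1.15 CPM and 12.8 ± 0.628 CPM, a fitted log2 fold change of 0.28 ± 0.13 (SE). The 3 genes of this name summed to whole numbers, 194, 224 and 217 in controls and 250, 256 and 220 with overexpression. On the CPM scale these sums did not overlap, at 13 ± 0.73 CPM against 15.2 ± 0.991 CPM (SD, n = 3), a log2 ratio of 0.23.

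Genes of a family also sat side by side in the genome. Of the 147 genes, 48 lay within 50000 bases of another one, in 21 clusters. The 3 defensin genes formed such a cluster on scaffold NW_021838465.1, between positions 39365134 and 39424706, where the pair of defensin-C and defensin-A had counts in every library and defensin-C-like had 1 count in all. A cluster of 5 CD109-like genes on scaffold NW_021838687.1, between positions 29946962 and 30142807, held genes with many and with few counts. In it LOC115255076 had 169, 173 and 149 counts in controls and 169, 147 and 140 with overexpression, while LOC109405966 had at most 2 counts in any library. Both were named after their values were seen.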

How the data were processed

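RNA-seq of ovaries was deposited as 1 table of estimated counts per gene; the authors' columns are unscaled read counts with 2 decimals. Per the labels' protocols, TRIzol was used for extraction and an MGIEasy kit for the libraries. The submitters' processing notes name HISAT and Bowtie2, with no role or version. The counting program, the genome build and whether strand was used were not given in the sources used here; therefore overlapping genes and genes that share reads are uncertain. Positions are those of the deposited table.

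Of 34479 rows, 10950 were blank and left out. Groups came from the sample titles. Estimates were rounded to whole numbers, filtered with filterByExpr, scaled by TMM (factors 0.991 to 1.01) and tested with edgeR 4.0.16 (R 4.3.3; quasi-likelihood F test, no covariate, Benjamini-Hochberg over 15540 genes, limit 0.05). SE is the size of the log2 fold change over the root of F. CPM used the unrounded estimates. DESeq2 1.42.0 and limma 3.58.1 gave alternatives. The procedure was tested on simulated data. Members and lists were chosen with earlier results of these data known. Genes named are all peptides, cactus, dorsal and MyD88 genes, the most abundant tested gene of each class, and the 5 smallest unadjusted p in each direction; others are said to be chosen after their values were seen. Replicate numbers do not pair the libraries. Precision is limited by 3 libraries per group, and totals of 15719412 to 16465531.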

Additional observations from a re-analysis of the deposited data

How the results depend on the processing

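Under all 16 alternatives no immune gene had an adjusted p under 0.05. The number with an unadjusted p under 0.05 in edgeR's test was 4 of 89 without overexpression library 1 (707 of 15812 over all genes) and 11 of 89 without control library 2 (787 of 15802), these being the lowest and highest of the leave-one-out fits. Over all genes, the 2 calls became 15 with the DESeq2 Wald test, 0 with the replicate block, 1 when genes of the same description were summed, and 0 to 2 when 1 library was left out. With the replicate block 713 genes had an unadjusted p under 0.05 in edgeR's test, and the block called 0 immune genes. Deviations of same-numbered libraries correlated at -0.01, 0.04 and 0.00, so the numbers were not taken as pairs. The sign of 8 named genes turned under some alternative. Cactus (LOC109429544) had -0.01 when summed with its copy. MyD88-like LOC109408899 had -0.08 with limma-voom, -0.01 with the replicate block, and -0.49 to 0.53 over the fits without 1 library. Over those fits the log2 fold change ran from -0.05 to 0.91 for defensin-C (LOC109409889), 0.00 to 1.99 for defensin-A (LOC109399074), -0.02 to 0.12 for LOC109412597, -0.01 to 0.50 for LOC115266475, -0.06 to 0.00 for LOC109431814 and -0.06 to 0.12 for LOC115261123. The cause was not tested. Depth limits the rare genes most: 58 of 147 had too few counts to be tested, and 15 had at most 3 counts over all libraries.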
